A study of Mus musculus with 3 samples.

Results

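The genes described here were the interleukins, their receptors and their soluble inhibitors in early heterotopic ossification (HO) masses of the mouse. They were chosen as all symbols in the feature table that begin with Il followed by a digit, which gave 85 features, or 83 distinct symbols, of 31053 features in all. The rule also took in Il4i1, an amino acid oxidase named for its induction by interleukin-4, and Il1bos, an antisense transcript of Il1b, neither of which is a cytokine or a receptor. Single-cell RNA was measured in masses taken on day 5 after subcutaneous implantation in female CD-1 mice aged 6 to 8 weeks. Matrigel-only mice received a Matrigel implant without rhBMP2 and no drug. Vehicle mice received rhBMP2 in Matrigel with oral corn oil/DMSO, and Palo mice received rhBMP2 in Matrigel with oral palovarotene at 4 mg/kg. Palovarotene is an agonist of the nuclear retinoic acid receptor gamma. All 3 groups carried Matrigel at the same kind of site, the Vehicle and Palo groups shared rhBMP2, and each group gave 1 library. The study's legends give 6 ectopic masses per group for these data, but how many mice a library held is not given in the sources used here. Matrigel is a basement membrane extract that sets to a gel under the skin, and rhBMP2 is a recombinant bone morphogenetic protein that induces cartilage and bone there.

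Interleukins are secreted proteins through which leukocytes and tissue cells signal to one another over short distances. Most bind a receptor with a private chain that gives specificity and a shared chain, such as gp130 (Il6st), the common gamma chain (Il2rg) or the interleukin-1 accessory protein (Il1rap), that starts signaling through JAK kinases and STAT factors or through MyD88. The interleukin-1 family is also held in check by a receptor antagonist (Il1rn), a decoy receptor (Il1r2) and a soluble binding protein (Il18bp), and interleukin-13 by the decoy Il13ra2. Injured soft tissue is populated early by neutrophils and macrophages, and resident fibroblasts both release and sense several of these proteins.

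The files held 9249 barcodes for the Matrigel-only library, 6065 for Vehicle and 7905 for Palo, with 44252421, 46317250 and 46901673 UMIs (unique molecular identifiers, each a captured RNA molecule). Cells with 200 to 6000 genes and at most 5% mitochondrial UMIs were kept, which left 8728, 5478 and 7297 cells. Between 11 and 21 cell barcodes were shared by any pair of libraries. Stromal cells, with at least 1% of UMIs from 5 matrix genes, numbered 2085, 1373 and 1184 in the same order of libraries. Macrophages, with a Csf1r or C1qa UMI, numbered 5804, 3189 and 5654, and T/NK cells, with a Cd3e or Nkg7 UMI, numbered 50, 213 and 44. Neutrophils, with at least 2 UMIs each of S100a8 and S100a9, numbered 1, 57 and 10, and basophils, with an Mcpt8 UMI, numbered 1, 66 and 0. An immune cell that met several of the last 4 rules was given no class. Of markers not used in these rules, 6 stromal ones summed to between 17335 and 20083 CPM (defined next) in stromal cells and to at most 205 CPM in macrophages, and 7 macrophage ones to between 16110 and 21392 CPM in macrophages and to at most 759 CPM in stromal cells. By such sums the small Vehicle classes were less clean, although single genes made up much of the sums. Neutrophils held 13941 CPM of neutrophil markers with 2162 CPM of macrophage markers. Of the latter 2064 CPM was Lyz2, and no other macrophage marker passed 24.3 CPM. They also held 1822 CPM of the basophil list, all of it Hdc. Basophils held 6842 CPM of basophil markers, led by Hdc at 3024 CPM, Gata2 at 2222 CPM and Cd200r3 at 663 CPM. With these came 2931 CPM of stromal markers. Of the latter 2854 CPM was Sparc, while Pdgfra, Prrx1 and Pdgfrb stood at 7.71 CPM each. They also held 1689 CPM of mast cell markers, chiefly Mcpt4 and Cma1, and 1566 CPM of endothelial markers. In that class 1 of the 66 cells held 25.1% of the UMIs, with 91 UMIs of Pecam1 and 57 of Cdh5, both endothelial, and 1 of Mcpt8. The study named a cluster seen almost only in Vehicle mast cells, and named no basophil cluster. Whether that cluster holds the cells classed as basophils here was not tested.

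Levels are given as UMIs per 1000000 UMIs of the class (CPM). Molecules were counted, so no length enters a comparison of levels between genes, although capture can differ between genes. With 1 library per group there was no replicate and no test, and every interval given is an exact 95% interval for counting error alone. A ratio was said to pass 2-fold where it did so with 1 CPM added to both levels and its interval excluded equality. Of the 85 features, 72 had a UMI in some barcode and 13 had none, and 44 reached 50 UMIs in at least 1 class: 35 in stromal cells, 36 in macrophages, 12 in T/NK cells, 2 in basophils and 1 in neutrophils.

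In stromal cells, receptors made up most of what was detected. Il6st, the signaling chain for interleukin-6 and interleukin-11, stood at 265, 270 and 202 CPM in Matrigel-only, Vehicle and Palo. Il4ra, the receptor chain for interleukin-4 and interleukin-13, stood at 330, 181 and 203 CPM. These were the 2 highest members of the class by mean level, followed by Il11ra1, Il1r1, Il13ra1, Il33, Il1rl2 and Il3ra. Among ligands the highest was Il33, a nuclear alarmin released by damaged cells, at 107, 65.8 and 76.9 CPM. Il11, Il34 and Il17d were also mostly stromal ligands. Stromal cells held 96.7%, 98.2% and 96.1% of the Il11 UMIs of passing cells in the 3 libraries, 98.6%, 93.4% and 97.5% of those of Il34, and 92.1%, 94.6% and 98.1% of those of Il17d. Macrophages held under 3 CPM of Il33 and under 1 CPM of Il11 and Il34 in each library.

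**Figure D1:**
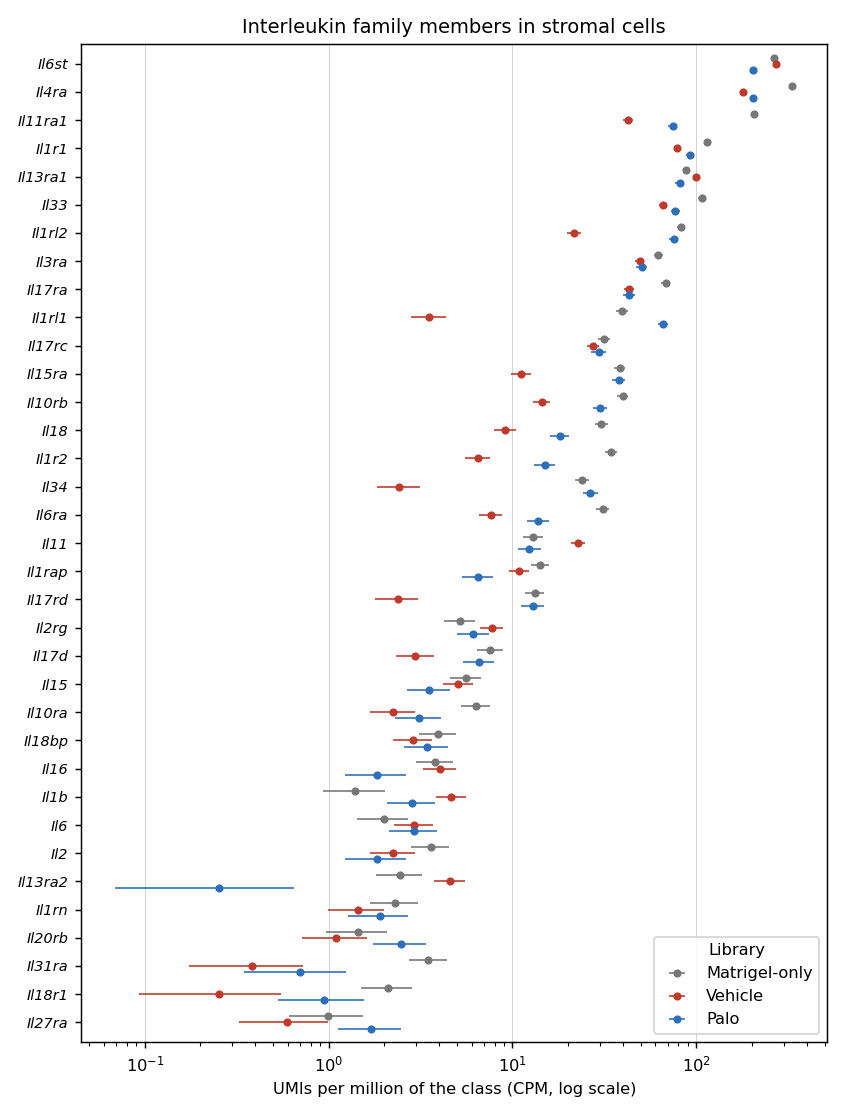
Level of each of the 35 members with at least 50 UMIs in stromal cells, in CPM of the class on a log scale (horizontal axis), for the 3 libraries (colours), ordered by mean level, with bars for the exact 95% counting interval. The Vehicle points of Il1rl1, Il34 and Il17rd lie far to the left of the other libraries, at 3.52, 2.42 and 2.37 CPM, and the Palo point of Il13ra2 lies at 0.253 CPM.

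Implants with rhBMP2 and vehicle were first set against Matrigel alone. Of 41 members tested in stromal cells, those with at least 20 UMIs over the pair of libraries, 14 were past 2-fold lower in Vehicle, where 9.44% of all 13855 genes tested were lower. Past 2-fold higher were 2 members, Il20ra and Il1b, where 5.18% of all genes were higher. The median log2 ratio was -0.54 over the members and -0.05 over all genes. The 14 lower members were 9 receptors or receptor chains (Il1rl1, Il1rl2, Il18r1, Il6ra, Il11ra1, Il31ra, Il10ra, Il10rb and Il15ra), the decoy Il1r2, the interleukin-17 receptor family member Il17rd and the ligands Il34, Il18 and Il17d.

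The widest of these differences was in Il1rl1, which encodes ST2, the receptor for interleukin-33 (chr1:40429570-40465415, plus strand, GRCm38, GENCODE annotation). Its level was 39.6 CPM in Matrigel-only, 3.52 CPM in Vehicle and 65.9 CPM in Palo, from 793, 83 and 1044 UMIs. Vehicle was thus 11.2-fold lower than Matrigel-only (interval 8.96 to 14.3), and Palo was 18.7-fold higher than Vehicle (15.0 to 23.7). When each cell was thinned to 3100 UMIs, 7.24%, 0.959% and 8.49% of stromal cells held an Il1rl1 UMI, with 207, 70 and 54 shallower cells left out, and before thinning the shares were 15.0%, 4.66% and 19.8%. The intervals of the Matrigel-only and Palo shares after thinning overlapped (6.11% to 8.51% and 6.93% to 10.3%). Over all Palo barcodes, of any class, a single one held 113 of the 2195 Il1rl1 UMIs and 4 held 13.8%. The ligand of Il1rl1, Il33, passed 2-fold in neither comparison. The gene's first RefSeq start is shown because this ratio was the widest among stromal members with at least 50 UMIs. The 300 bases held none of the motifs searched. The window of the gene's other RefSeq start held an NF-kB match 7 bases after that start. UMIs were counted per gene, so transcripts from the first start and from the other were not told apart. The motifs were searched on both strands of all 32851 RefSeq promoter windows of this length. The AP-1 letters TGANTCA were held by 7.81% of the windows. An NF-kB site, spelled GGANTTTCC, was held by 1.25%. The hypoxia response core ACGTG lay in 19.6%, and the TATA box, spelled TATAAA, in 13.6%. Capitals mark matches in this and later sequences, each of which runs 250 bases before to 50 after the start (RefSeq, GRCm38.p6).
Il1rl1, chr1:40429320-40429619, plus strand: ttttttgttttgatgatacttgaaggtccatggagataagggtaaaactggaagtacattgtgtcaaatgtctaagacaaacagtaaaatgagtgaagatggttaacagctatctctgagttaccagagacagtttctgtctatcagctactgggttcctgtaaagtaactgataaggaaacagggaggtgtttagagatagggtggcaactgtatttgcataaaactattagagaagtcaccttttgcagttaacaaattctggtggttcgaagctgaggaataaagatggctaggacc

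Il34 encodes a second ligand of the macrophage receptor Csf1r, and lies at chr8:110741829-110805924 on the minus strand. Its stromal level was 23.9 CPM in Matrigel-only, 2.42 CPM in Vehicle and 26.6 CPM in Palo. Matrigel-only and Palo lay close together and Vehicle lay apart, 9.91-fold below Matrigel-only (7.52 to 13.3) and 11.01-fold below Palo (8.33 to 14.8). After thinning, 7.22%, 0.817% and 7.71% of stromal cells held an Il34 UMI, against 16.4%, 3.64% and 23.2% before, and 0.0338%, 0.0105% and 0.0273% of macrophages, a type not known to make it, held one at 1400 UMIs. Il1rl2, the receptor for the interleukin-36 cytokines, was also lowest in Vehicle, at 82.2, 21.6 and 75.5 CPM, and so was Il15ra, the chain that presents interleukin-15, at 38.4, 11.2 and 38.0 CPM. Il17rd, known also as Sef, an inhibitor of fibroblast growth factor signaling, stood at 13.2, 2.37 and 12.9 CPM.

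A second group was lower in Vehicle and stayed below Matrigel-only in Palo. Il11ra1, the private chain for interleukin-11, fell from 206 CPM in Matrigel-only to 42.7 CPM in Vehicle and was 74.6 CPM in Palo. Its Palo level was 1.75-fold that of Vehicle (1.60 to 1.90), which does not pass 2-fold. Il6ra, the private chain for interleukin-6, stood at 31.1, 7.63 and 13.8 CPM, and the decoy Il1r2 at 34.5, 6.49 and 15.0 CPM. Il31ra, part of the interleukin-31 receptor, stood at 3.49, 0.381 and 0.695 CPM. Il11ra1 overlaps 6 annotated genes, 1 of them (Galt) on its own strand, and its near-identical copy Il11ra2 had no UMI in any of its 3 features, so reads that fit both copies are uncertain.

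The ligand Il11, a gp130 cytokine made by fibroblasts, went the other way without passing 2-fold. Its stromal level was 13.0 CPM in Matrigel-only, 22.8 CPM in Vehicle and 12.4 CPM in Palo. Vehicle was 1.76-fold above Matrigel-only (1.51 to 2.04) and 1.85-fold above Palo (1.56 to 2.18). These UMIs came from few cells, since 4 barcodes held 28.7% of the 712 Vehicle UMIs and a single one held 62. After thinning, 2.27%, 2.88% and 2.61% of stromal cells held an Il11 UMI, shares whose intervals overlapped. RefSeq lists 2 starts for the gene, and the window of the inner one held an AP-1 match, while that of the outer one held no motif searched.
Il11, chr7:4778092-4778391, minus strand: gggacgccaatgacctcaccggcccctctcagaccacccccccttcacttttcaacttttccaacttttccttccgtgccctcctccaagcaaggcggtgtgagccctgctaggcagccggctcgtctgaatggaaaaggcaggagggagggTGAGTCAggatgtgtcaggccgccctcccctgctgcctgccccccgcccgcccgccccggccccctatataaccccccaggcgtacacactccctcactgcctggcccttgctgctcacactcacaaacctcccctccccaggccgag

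Palo was then set against Vehicle, the comparison that bears on the drug. In stromal cells 7 of 40 members tested were past 2-fold higher, namely Il1rl1, Il34, Il17rd, Il1rl2, Il15ra, Il1r2 and Il10rb, where 6.53% of all 13665 genes were higher. Only Il13ra2 was past 2-fold lower, where 5.38% of all genes were lower. The median log2 ratio was 0.23 over the members and 0.01 over all genes. All 7 higher members were also among the 14 that were lower in Vehicle than in Matrigel-only, and both comparisons share the Vehicle library. Il13ra2, the decoy for interleukin-13, stood at 2.44 CPM in Matrigel-only, 4.58 CPM in Vehicle and 0.253 CPM in Palo, from 49, 108 and 4 UMIs. Palo was 18.1-fold below Vehicle (6.88 to 67.7) and was also the lowest of the 3 libraries. After thinning, 0.558%, 1.01% and 0.0801% of stromal cells held an Il13ra2 UMI. Over all Vehicle barcodes, 4 held 32.7% of its 202 UMIs, 3 of them outside the cell filter. The interval does not allow for UMIs that cluster in few cells. Between Palo and Matrigel-only, none of 40 members was past 2-fold higher (0.769% of all genes were) and 6 were lower (2.07% of all genes were), namely Il13ra2, Il11ra1, Il31ra, Il1r2, Il6ra and Il1rap.

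The makeup of the stromal class differed between libraries along with these levels. A UMI of the cartilage genes Acan or Col2a1 was held by 63.4% of stromal cells in Vehicle, by 0.0959% in Matrigel-only and by 0.338% in Palo. A UMI of Pi16, which marks a fibroblast state of loose connective tissue, was held by 55.3%, 12.2% and 31.1% in Matrigel-only, Vehicle and Palo. The Vehicle cells were therefore split. The 871 cells with an Acan or Col2a1 UMI held 31.9 CPM of Il33 and the 502 cells without held 132 CPM, 4.13-fold more (3.71 to 4.61). Il13ra2 differed by 7.19-fold in the same direction (4.49 to 11.9), at 1.48 and 10.6 CPM, and Il11ra1 by 3.35-fold (2.95 to 3.82), at 23.7 and 79.6 CPM. Il4ra stood at 120 and 300 CPM. Il34 differed by 3.60-fold (2.04 to 6.54), at 1.28 and 4.62 CPM, and Il1rl1 by 1.81-fold (1.15 to 2.85), at 2.76 and 4.99 CPM. Both were thus higher in the cells without these UMIs, but low in both groups of cells.

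**Figure D2:**
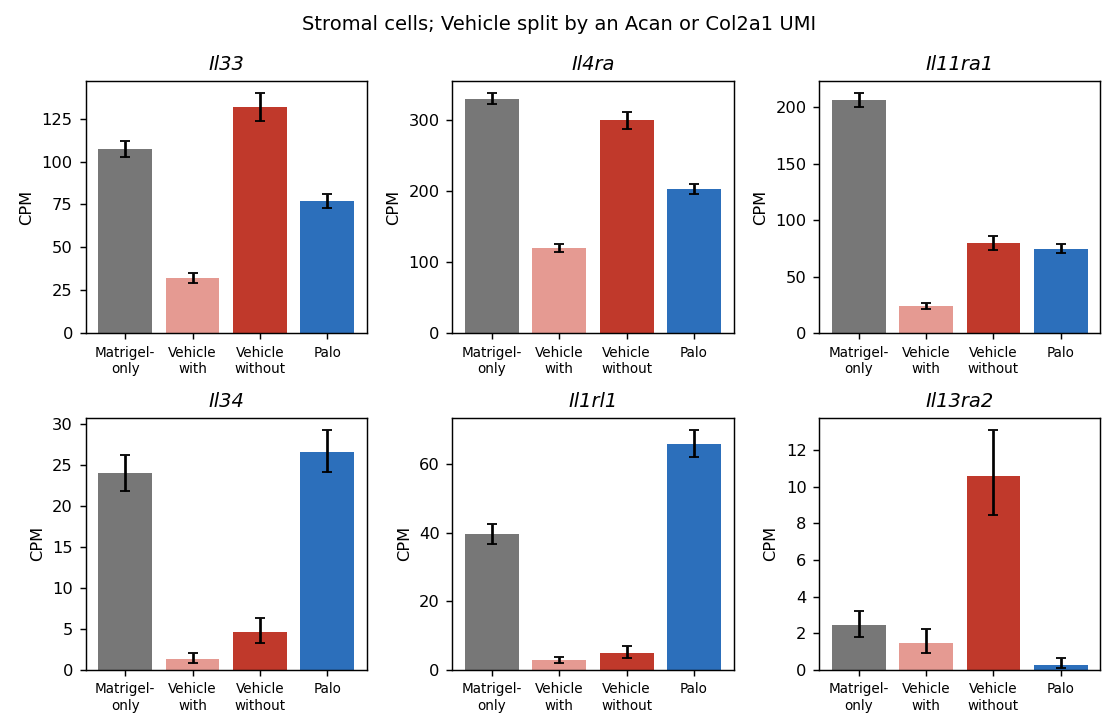
Level in CPM (vertical axis, from 0) of 6 members in stromal cells of Matrigel-only, of Vehicle cells with and without a UMI of Acan or Col2a1, and of Palo, with bars for the exact 95% counting interval. In Vehicle cells without those UMIs, Il33 and Il4ra reached 132 and 300 CPM, while Il1rl1 and Il34 stood at 4.99 and 4.62 CPM, under both other libraries. In Vehicle cells with those UMIs, Il1rl1 and Il34 were lower, at 2.76 and 1.28 CPM.

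Without the Acan or Col2a1 cells, an alternative chosen after seeing the data, 11 of 39 members were lower in Vehicle than in Matrigel-only, where 7.29% of all genes were, and 5 were higher, where 3.55% were. In Palo against Vehicle 4 of 35 were higher, where 4.52% of all genes were, and 3 were lower, where 3.78% were. The Palo over Vehicle ratio was then 13.1-fold for Il1rl1, 5.76-fold for Il34, 3.46-fold for Il17rd and 2.21-fold for Il1rl2, all still past 2-fold, but 1.88-fold for Il15ra, 1.36-fold for Il10rb and 1.15-fold for Il1r2. Without cells that held a Pi16 UMI, the ratio was 20.2-fold for Il1rl1 and 9.16-fold for Il34. Whether the remaining differences reflect further subtypes was not tested.

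Stromal Il1b, the other member higher in Vehicle, sat at 1.40, 4.66 and 2.84 CPM in Matrigel-only, Vehicle and Palo. That was 2.61%, 2.33% and 4.43% of its level in macrophages, while C1qb, a macrophage gene, stood in stromal cells at 3.86%, 1.30% and 2.99% of its macrophage level. Il20ra, a chain of the interleukin-20 receptor, had 1, 37 and 8 stromal UMIs, a Vehicle over Matrigel-only ratio of 31.4 (5.30 to 1275). Macrophage genes in stromal cells move between libraries too, and their part in the values of Il1b, Il10ra and Il18 was not tested. Il10ra, the interleukin-10 receptor of macrophages, was 2.82-fold lower in Vehicle stromal cells (2.03 to 3.96), but 1.23-fold lower where stromal cells meeting an immune rule were left out, and no longer past 2-fold.

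Macrophages held receptors for interleukin-4, interleukin-6 and interleukin-10 at the highest levels among members, and most of the Il1b UMIs. Il4ra was their highest member at 478, 597 and 346 CPM in Matrigel-only, Vehicle and Palo. It was followed by Il10ra at 150, 136 and 135 CPM, Il6ra at 166, 131 and 122 CPM, and Il10rb at 128, 131 and 116 CPM. The next 4 by mean level were Il1b, Il6st, Il1rn and Il17ra. Levels of Il10ra and Il10rb, which together form the interleukin-10 receptor, thus differed little between libraries, and Il10 itself was low at 7.57, 8.99 and 4.23 CPM. Il10rb overlaps the read-through gene model Gm21970 on its strand, so some of its reads may not have been counted.

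In macrophages 11 of 41 members tested were past 2-fold higher in Vehicle than in Matrigel-only, where 4.14% of all 12609 genes were higher. They were Il4i1, Il1b, Il18rap, Il31ra, Il1rap, Il7r, Il1r1, Il18bp, Il6st, Il2rb and Il1rl2. Lower were 3, Il27ra, Il1rl1 and Il16, where 2.66% of all genes were lower. The median log2 ratio was 0.35 over the members and -0.01 over all genes. Palo was compared with the same Vehicle library, so the comparisons are not independent. Of 42 members, 11 were past 2-fold lower in Palo (Il4i1, Il31ra, Il1b, Il18bp, Il1rap, Il1r1, Il6st, Il1r2, Il2rb, Il2rg and Il6), where 5.02% of all 12717 genes were lower, and 2 were higher (Il27ra and Il1rl1), where 1.82% were higher. The median was -0.44 over the members and -0.14 over all genes. Palo and Matrigel-only differed past 2-fold in 2 of 39 members, Il18rap higher (0.856% of all genes were higher) and Il11ra1 lower (1.75% were lower).

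Il1b encodes a secreted inflammatory cytokine that caspase-1 can process (chr2:129364570-129371139, minus strand). Its macrophage level was 53.5 CPM in Matrigel-only, 200 CPM in Vehicle and 64.1 CPM in Palo, from 1089, 2809 and 1758 UMIs. Vehicle was 3.74-fold above Matrigel-only (3.49 to 4.02) and 3.12-fold above Palo (2.94 to 3.32), and Palo was 1.20-fold above Matrigel-only (1.11 to 1.29). After thinning to 1400 UMIs, 5.04%, 16.1% and 6.01% of macrophages held an Il1b UMI, against 8.72%, 25.3% and 13.3% before. In stromal cells 0.393%, 1.08% and 0.721% held one, at the greater depth of 3100 UMIs used for that class. The 5 neutrophil markers listed summed to 83.1, 190 and 64.8 CPM in the macrophage class. Most of this was Clec4d, at 20.6, 105 and 28.2 CPM, and Csf3r, at 30.3, 61.5 and 30.5 CPM. Mmp9 did not follow the sum, at 31.8, 18.2 and 5.73 CPM. In Vehicle macrophages S100a8, used in the neutrophil rule, stood at 9.98 CPM against 30748 CPM in neutrophils, and Retnlg, 1 of the 5, at 0.0713 CPM against 3303 CPM. Without macrophages that held a UMI of S100a8, S100a9 or Retnlg the Vehicle over Matrigel-only ratio was 3.76-fold, and among macrophages with a C1qa UMI it was 5.93-fold. Il1bos overlaps Il1b on the other strand and had 28 UMIs over all barcodes. The window at the start of Il1b held a TATA match 31 bases before the start.
Il1b, chr2:129371090-129371389, minus strand: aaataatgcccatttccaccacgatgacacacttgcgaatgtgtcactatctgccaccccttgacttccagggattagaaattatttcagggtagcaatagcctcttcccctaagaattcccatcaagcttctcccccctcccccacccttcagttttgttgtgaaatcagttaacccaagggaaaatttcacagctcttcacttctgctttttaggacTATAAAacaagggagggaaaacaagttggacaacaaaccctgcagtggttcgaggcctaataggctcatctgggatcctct

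Most inhibitors and partner chains of the interleukin-1 family were also highest in Vehicle macrophages. Il1rn, the receptor antagonist, stood at 50.6, 78.9 and 59.2 CPM and passed 2-fold in neither comparison. Il1rap, the shared accessory chain, stood at 9.24, 24.5 and 7.44 CPM. Il1r1, the signaling receptor, stood at 2.51, 7.42 and 2.08 CPM, and the decoy Il1r2 at 2.70, 5.92 and 1.90 CPM. In stromal cells Il1r1 was far higher, at 115, 78.9 and 92.8 CPM. Its macrophage level was 2.18%, 9.40% and 2.24% of the stromal one. The same shares were 2.38%, 4.33% and 2.23% for Il33 and 0.677%, 1.09% and 0.407% for Col3a1, both stromal genes. The part of stray stromal RNA and of endothelial cells in macrophage Il1r1 was not tested. Il18, the ligand, was level across the libraries at 30.1, 35.1 and 32.3 CPM, while its neutralizing protein Il18bp stood at 15.98, 39.7 and 12.4 CPM, 2.49-fold higher in Vehicle than in Matrigel-only (2.16 to 2.86) and 3.20-fold higher than in Palo (2.79 to 3.68).

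Il4i1 showed the widest macrophage ratio of a member with at least 50 UMIs, at 2.36, 12.6 and 1.93 CPM, 5.32-fold higher in Vehicle than in Matrigel-only (3.85 to 7.48) and 6.49-fold higher than in Palo (4.75 to 8.9999). It overlaps Nup62 on its own strand over 14426 bases, so reads of shared exons are uncertain. Over all libraries, cells that met no rule held 289 Il4i1 UMIs and macrophages 277. The 5 dendritic cell markers examined (Flt3, Xcr1, Clec9a, Ccr7 and Zbtb46) summed to 6.83, 13.9 and 7.30 CPM in the macrophage class. The part of dendritic cells in the Il4i1 value was not tested. Il6st, the gp130 chain, stood at 53.0, 125 and 48.9 CPM, 2.36-fold higher in Vehicle than in Matrigel-only (2.19 to 2.55). Il31ra rested on few UMIs, 3, 34 and 1, with a Vehicle over Matrigel-only ratio of 16.4 (5.17 to 83.7). The 4 endothelial markers listed summed to 8.21, 51.8 and 5.76 CPM in the macrophage class, Pecam1 most of it, and their part in the values of Il6st and Il31ra was not tested. Il2rb, mostly a T/NK gene here, had 5, 24 and 4 macrophage UMIs in Matrigel-only, Vehicle and Palo, and 8 T/NK markers summed to 2.11, 7.35 and 2.08 CPM in the class, whose part in its value was not tested.

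Il1rl1, Il27ra and Il16 ran the other way. Il1rl1 stood at 31.6, 14.3 and 33.0 CPM in macrophages, 2.21-fold lower in Vehicle than in Matrigel-only (1.88 to 2.60), the same order as in stromal cells with a smaller step. Il27ra, the interleukin-27 receptor, stood at 11.9, 4.42 and 12.7 CPM, and Il16, a cytokine that draws CD4+ lymphocytes, at 42.6, 20.5 and 36.0 CPM. None of the 3 remained past 2-fold lower in Vehicle among macrophages with a C1qa UMI, where the ratios were 2.00-fold, 2.13-fold and 1.94-fold, and with 5 CPM added none did either.

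**Figure D3:**
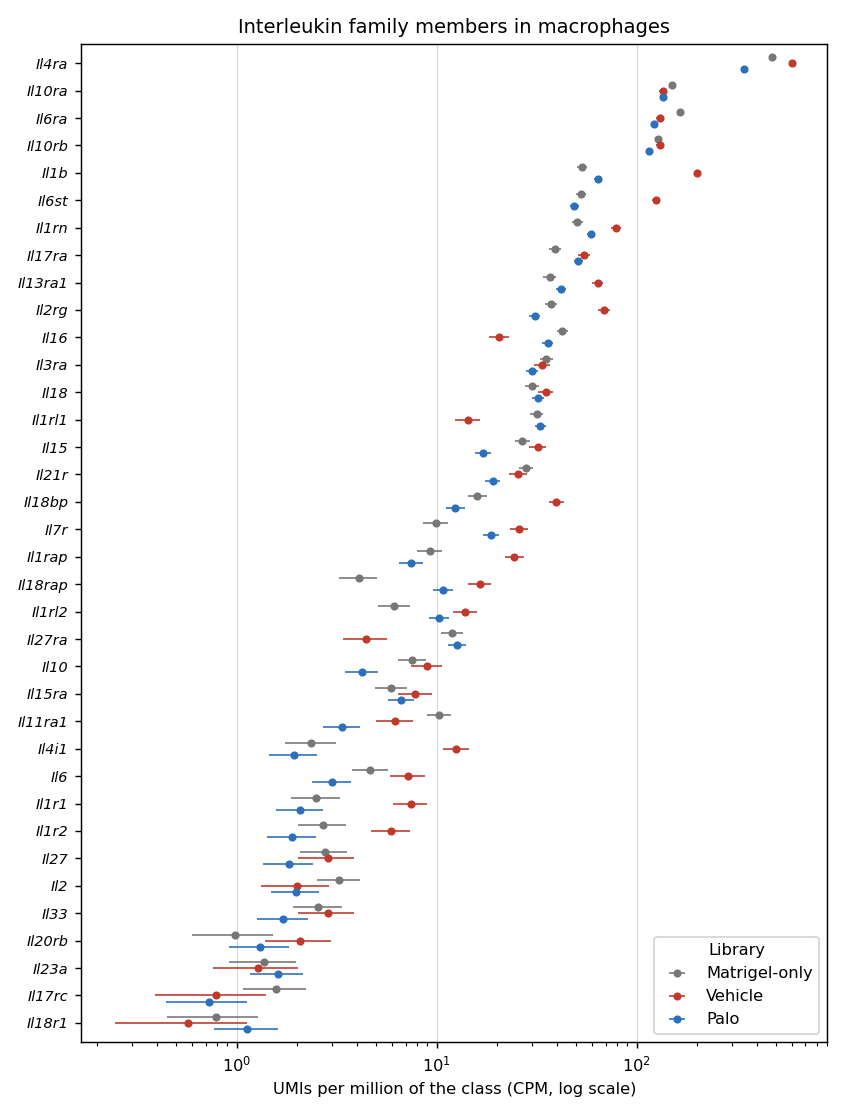
Level of each of the 36 members with at least 50 UMIs in macrophages, in CPM of the class on a log scale (horizontal axis), for the 3 libraries (colours), ordered by mean level, with bars for the exact 95% counting interval. Il1b, Il6st, Il18bp and Il4i1 lie to the right in Vehicle, at 200, 125, 39.7 and 12.6 CPM, with Matrigel-only and Palo close together, and Il27ra and Il1rl1 lie to the left.

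Neutrophils held Il1b at the highest level of any member in any class. The 57 Vehicle neutrophils held 480 Il1b UMIs, or 11658 CPM (10638 to 12749), and 54 of them held at least 1. The 10 Palo neutrophils held 72, or 6145 CPM (4808 to 7739), and the single Matrigel-only cell held 7 UMIs. The Palo class held 4097 CPM of the neutrophil markers, against 13941 CPM in Vehicle, and Retnlg stood at 427 against 3303 CPM. The part of other cells in the Palo level of Il1b was not tested. The next members in Vehicle were Il1rn at 923 CPM, Il17ra, the receptor through which interleukin-17 acts, at 777 CPM, Il6ra at 583 CPM and Il1r2 and Il1rap at 559 CPM each. Il1f9, an interleukin-36 cytokine, stood at 340 CPM from 14 of the 23 UMIs that the whole Vehicle library held. Despite this level neutrophils were few, so that they held 480 of the 4012 Il1b UMIs of passing Vehicle cells while macrophages held 2809, or 70.0% (68.6 to 71.4). In Matrigel-only and Palo macrophages held 83.4% and 85.9%.

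Basophils were seen in Vehicle almost alone and carried Il6. The 66 cells held 128 Il6 UMIs, or 987 CPM (824 to 1174), and 50 of them, or 75.8% (63.6 to 85.5), held at least 1. The level was 1453 CPM among cells with at least 2 Mcpt8 UMIs, an alternative chosen after seeing the data, and 1722 CPM where each cell had the same weight. The part of the mast cell markers and of the stromal markers noted above, chiefly Sparc, in these levels was not tested. In the same library macrophages held 7.20 CPM of Il6 and stromal cells 2.92 CPM. Of the 421 Il6 UMIs in passing Vehicle cells, basophils held 30.4% (26.0 to 35.0) and cells that met several immune rules another 84 UMIs, while the Matrigel-only and Palo libraries held 155 and 136 Il6 UMIs over all barcodes against 460 in Vehicle. Other members in basophils were Il18rap at 494 CPM, Il7r at 262 CPM, Il17ra and Il18r1 at 216 CPM each, Il1rl1 at 170 CPM, Il4 at 147 CPM and Il3ra, the receptor chain for the basophil growth factor interleukin-3, at 123 CPM. Il18rap and Il18r1 form the interleukin-18 receptor. The Il6 window (chr5, gene at chr5:30013114-30019981, plus strand) held an NF-kB match 43 bases and an AP-1 match 249 bases before the start, and is shown because Il6 was the leading ligand of this class.
Il6, chr5:30012864-30013163, plus strand: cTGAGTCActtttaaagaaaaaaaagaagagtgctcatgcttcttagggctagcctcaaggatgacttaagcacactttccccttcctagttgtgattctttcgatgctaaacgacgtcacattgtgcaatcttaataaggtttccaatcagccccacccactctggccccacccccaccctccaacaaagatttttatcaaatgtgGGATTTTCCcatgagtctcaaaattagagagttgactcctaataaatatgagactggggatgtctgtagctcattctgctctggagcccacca

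Among T/NK cells the interleukin-2 receptor chains led. Il2rb, the chain shared by the interleukin-2 and interleukin-15 receptors, stood at 1260, 1094 and 706 CPM in Matrigel-only, Vehicle and Palo. Il2ra, which makes that receptor high in affinity, stood at 78.0, 338 and 306 CPM from 7, 184 and 36 UMIs, 4.34-fold higher in Vehicle than in Matrigel-only (2.06 to 10.9). Markers of the class moved too, but not all alike. The T cell gene Cd3d stood at 134, 561 and 238 CPM and the NK cell gene Ncr1 at 624, 230 and 366 CPM. Of the other markers listed, Cd3g, Trbc2 and Lck were also highest in Vehicle. Trac stood at 111, 291 and 349 CPM, Klrd1 at 368, 309 and 247 CPM and Gzma at 2497, 3452 and 1566 CPM. The part of the mix of T and NK cells in the T/NK values was not tested. Il18rap stood at 569, 257 and 383 CPM, Il18r1 at 323, 199 and 230 CPM and Il7r, the interleukin-7 receptor, at 312, 232 and 272 CPM.

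Of 17 members tested, 4 were past 2-fold higher in Vehicle than in Matrigel-only (Il6ra, Il4ra, Il2ra and Il6st, where 3.06% of all 5030 genes were higher) and 1, Il18rap, was lower (3.46% of all genes were). Of 18 tested between Palo and Vehicle none was higher (2.70% of all genes were) and 3, Il6ra, Il6st and Il21r, were lower (3.76% were). The median log2 ratios were 0.14 and -0.33 over the members, against -0.01 and -0.03 over all genes. Il6ra had 25 UMIs in Vehicle and 0 in the others, so its level there was at least 1.37-fold above Matrigel-only and at least 1.80-fold above Palo, against a floor of 3 UMIs per library. Its place among the calls rests on the 1 CPM added, and with Il6ra at these bounds the counts were 3 higher and 1 lower of 17, and 2 lower of 18, with medians still 0.14 and -0.33. The Il4ra ratio rested on 1 Matrigel-only UMI, at 13.5-fold (2.36 to 541). With 50 and 44 cells in the smaller libraries, most differences were not detectable at this depth.

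Vehicle T/NK cells comprised 94 cells with a Cd3e UMI and 119 with Nkg7 alone, and their members differed. Il2ra stood at 605 CPM in the first and 63.5 CPM in the second, 9.53-fold apart (5.77 to 16.7), and Il7r at 398 and 59.8 CPM. Il2rb ran the other way, at 634 and 1569 CPM, and Il18rap stood at 163 and 355 CPM. Il1rl1 had 27 UMIs in the Cd3e cells, or 97.8 CPM, and 0 UMIs in the others, which allows up to 13.8 CPM at the upper end of the interval.

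**Figure D4:**
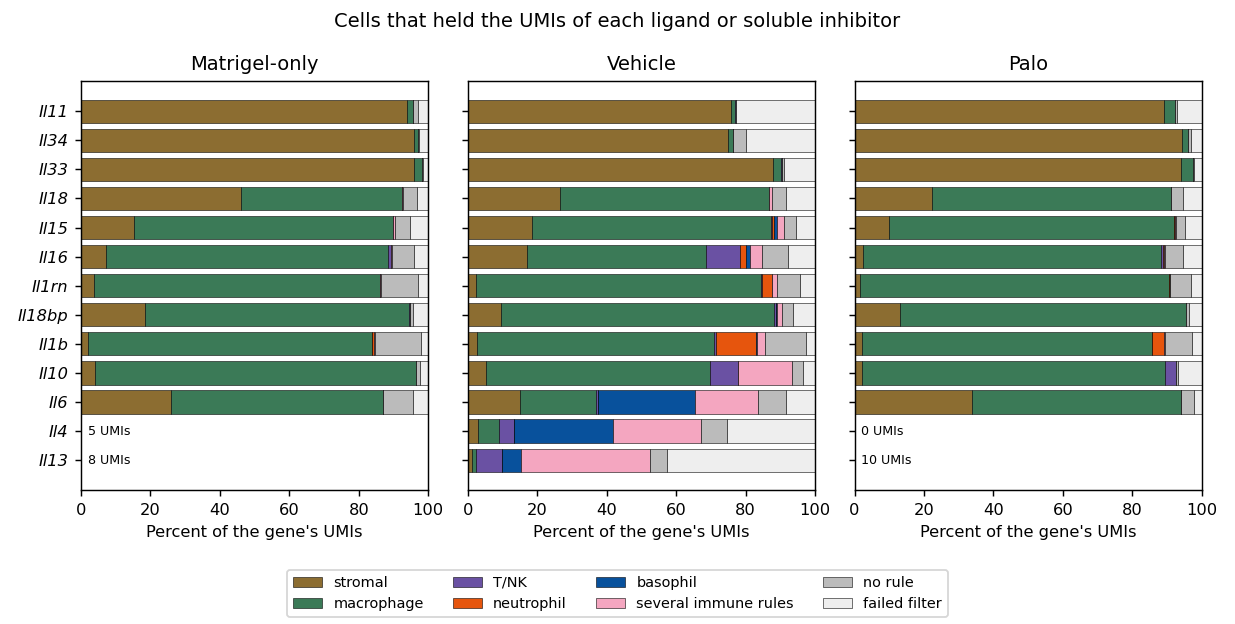
Share of the UMIs of each of 13 ligands or soluble inhibitors (rows) that lay in each class or group of barcodes (colours), as a percent of the gene's UMIs in all barcodes of a library (horizontal axis), for the 3 libraries. Bars for Il4 and Il13 are left out where a library held under 20 UMIs, and Vehicle alone shows the basophil share of Il6 and the neutrophil share of Il1b clearly.

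Several ligands were split between classes. Il18 UMIs of passing cells lay 47.9%, 65.7% and 72.7% in macrophages, with stromal cells holding most of the rest. Il15 lay 78.7%, 72.9% and 86.6% in macrophages, Il16 84.8%, 55.9% and 90.9%, Il1rn 84.9%, 85.5% and 91.7%, and Il18bp 79.5%, 84.0% and 85.4%. Il10 lay 94.5%, 67.0% and 93.5% in macrophages, and in Vehicle 30 of its 188 UMIs lay in cells that met several immune rules. Il27 and Il23a were macrophage ligands at low level, between 1.28 and 2.85 CPM. Il2, which activated T cells secrete, had 153, 99 and 91 UMIs, nearly all in stromal cells and macrophages at 1.83 to 3.59 CPM. Vehicle T/NK cells held 7 UMIs, a higher level given the 543819 UMIs of that class, but in only 0.939% of its cells. Il2 overlaps Adad1 on the other strand.

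Type 2 cytokines were few and came from few cells. Vehicle held 67 Il4 UMIs and 162 Il13 UMIs, Matrigel-only 5 and 8, and Palo 0 and 10. Of the Vehicle Il13 UMIs, 117 lay in 4 barcodes and 9 lay in 7 of the 66 basophils. All 4 barcodes had a Cd3e UMI, but 2 failed the cell filter and 2 met several immune rules, so none was in the T/NK class. Il5 had 13 Vehicle UMIs. The remaining low members, with fewer than 50 UMIs over all barcodes, were Il17f, Il19, Il1f9, Il1f5, Il1f10, Il1a, Il1bos, Il1rapl1, Il7, Il21, Il12a, Il23r, Il5ra, Il17re, Il22ra2, Il22, Il17rb, Il25, Il9r, Il12b, Il5, Il3 and Il17b. No UMI was found for Il17a, Il24, Il20, Il1f8, Il1f6, Il1rapl2, Il22ra1, Il31, Il17c, Il9 or Il11ra2, so interleukin-17A, the main ligand of Il17ra, was not detected at this depth.

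The signaling genes downstream of these receptors were counted as 5 lists of 42 genes in all. In macrophages all 42 were tested, and 5 were past 2-fold higher and 1 lower in Vehicle than in Matrigel-only, where 4.14% of all genes were higher and 2.66% lower, with a median log2 ratio of 0.06. Among the higher genes were the kinase Jak2 and the feedback inhibitors Socs1, Socs2 and Cish, and the lower one was Lifr, a partner of gp130. Cish, an inhibitor induced by STAT5, stood at 6.98, 48.1 and 2.19 CPM in Matrigel-only, Vehicle and Palo, and Palo was 22.0-fold below Vehicle (16.9 to 29.1). Socs1 stood at 15.8, 70.0 and 11.9 CPM, and Jak2 at 26.0, 122 and 23.9 CPM. Against the shared Vehicle library 5 were lower in Palo (5.02% of all genes were) and Lifr was higher (1.82% were), with a median of -0.24. Between Palo and Matrigel-only, Cish alone passed 2-fold, as lower (1.75% of all genes were).

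In stromal cells, 1 of 40 was higher (Lifr) and 8 were lower in Vehicle than in Matrigel-only (Csf2rb, Jak1, Stat2, Irak3, Traf3ip2, Nlrp3, Pycard and Gsdmd), where 5.18% of all genes were higher and 9.44% lower, with a median of -0.38. Jak1, the kinase of most of these receptors, stood at 374, 138 and 270 CPM, and Lifr at 24.2, 56.5 and 17.4 CPM. Csf2rb stood at 7.43, 2.76 and 4.99 CPM, against 169 and 200 CPM in Matrigel-only and Vehicle macrophages. The macrophage gene C1qb stood at 112, 26.3 and 83.5 CPM in stromal cells. The part of macrophage RNA in the stromal values of Csf2rb and the other lower genes was not tested. None of the 10 feedback inhibitors passed 2-fold there in any comparison. Of 39 between Palo and Vehicle, 2 were higher (Irak3 and Gsdmd) and 2 lower (Lifr and Jak3), near the 6.53% and 5.38% of all genes, with a median of 0.21, and none of 40 passed 2-fold between Palo and Matrigel-only. In T/NK cells 3 of 28 were higher in Vehicle than in Matrigel-only, Jak3 and Socs3 among them, where 3.06% of all genes were. In Palo against Vehicle 3 were lower, Stat2 and Socs3 among them, where 3.76% were. Jak3 and Stat2 rested on few UMIs. Jak3 was 4.95-fold higher in Vehicle (1.31 to 41.8), and Stat2, at 8.51 CPM in Palo, was 6.48-fold lower there (1.08 to 264).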

How the data were processed

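Single-cell RNA was measured in 3 libraries, 1 per group. Per the labels, the authors made the libraries on a 10x Genomics Chromium controller, and their processing notes name Cell Ranger 3.0.2, Seurat 3 and genome build mm10. The deposited matrices hold raw UMI counts per gene and barcode, without normalization.

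From these counts, cells were filtered as in the study's methods, which left its stated cell number in Matrigel-only and 2 and 1 cells more in Vehicle and Palo. Cells were classed by the rule, stromal first, other cells only where exactly 1 of the 4 immune rules was met. Counts were summed per class and library and divided by the class total (CPM). Library depth ranged from 44252421 to 46901673 UMIs, and the class total sets the precision of each level. Intervals were exact Poisson, exact binomial and, for ratios, conditional binomial (95%), and cover counting error only. Genes with at least 20 UMIs over a pair of libraries were tested for 2-fold with 1 CPM added, without p-values since groups were not replicated. The ratio step was tested on simulated data. Python 3.11.15, numpy 2.4.6, scipy 1.17.1, scanpy 1.11.5 and edgeR 4.0.16 were used, the last for TMM factors only. Doublets were not removed. Scrublet's own threshold marked 1, 3 and 0 cells and so did not work, and an alternative leaves out the 609, 240 and 426 highest scores instead. Promoter windows came from RefSeq (66 of 83 symbols matched) and gene positions from GENCODE (GRCm38).

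The members and lists were chosen with earlier results of these data known. Named were the 8 highest members per class, those past 2-fold, ligands and soluble inhibitors with at least 50 UMIs, and Vehicle levels in basophils and neutrophils. Subsets of Vehicle classes are descriptions. Alternatives in class membership, doublets, scaling, cell weight, count minimum, pseudocount and thinning are given at the end. The values of 1 gene of the signaling lists are not reported here.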

Additional observations from a re-analysis of the deposited data

Results flagged for a closer look

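Il1rl2, Il31ra, Il18rap and Il1r2 were past 2-fold in opposite directions in a pair of classes under the same comparison, and the difference itself was not tested. Between Vehicle and Matrigel-only, Il1rl2 had a log2 ratio (1 CPM added) of -1.88 in stromal cells and 1.06 in macrophages, and Il31ra -1.70 and 1.58. Il18rap had 1.78 in macrophages and -1.14 in T/NK cells. Between Palo and Vehicle, Il1r2 had 1.10 in stromal cells and -1.26 in macrophages. Il6ra was listed with them at -1.89 in stromal cells and 5.55 in T/NK cells, but Matrigel-only T/NK cells held 0 UMIs, so the second value is set by the 1 CPM added, and the bound of 1.37-fold does not pass 2-fold. Il1rl2 had 1649 UMIs in Matrigel-only stromal cells and 125 in its macrophages, and its macrophage ratio turned to -0.36 where cells that also met another rule were counted in every class they met.

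Members with most of their UMIs outside the 5 classes were also singled out. For Il13, 137 Vehicle UMIs lay in such barcodes, against 5 in Matrigel-only, and for Il4 39 against 0. For Il4i1 there were 216 in Vehicle and 62 in Palo, against 25 in Matrigel-only, and 208 of the Vehicle UMIs lay in 31 of the 501 cells that met no rule.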

How the results depend on the processing

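No paired analysis was possible because each group is 1 library, and for the same reason no replicate could be left out. The 51 ratios past 2-fold of members with at least 50 UMIs in the class were followed, in Vehicle over Matrigel-only and Palo over Vehicle. There were 10 planned and 5 added alternatives, the latter chosen after seeing the data. Thinning, which was planned, and the added basophil alternative gave no ratio, and the rest gave 551 values. Ratios of members with fewer UMIs and of Palo over Matrigel-only were not followed singly. Of the values, 490 stayed past 2-fold, 61 did not and 2 reversed. The counting interval of the main ratio held 447 of the values, and 102 moved outside it without reversing. Part of the 490 was fixed in advance. Dropping the minimum of UMIs changes no ratio, and a minimum of 50 UMIs changes only whether a gene is tested. In macrophages and T/NK cells, the cells that met exactly 1 rule were the same cells as in the main setting. Both reversals came where a cell counted in every class whose rule it met: the Vehicle over Matrigel-only log2 ratio was then -0.36 for Il1rl2 in macrophages and -0.0062 for Il6st in T/NK cells. The cause was not tested.

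Counts of members past 2-fold that moved by over 1.5 times are given by comparison. In stromal cells the 2 higher in Vehicle than in Matrigel-only became 1 with cells that met exactly 1 rule, 4 with cells weighted equally, 1 with a minimum of 50 UMIs, 0 with 5 CPM added and 5 without Acan or Col2a1 cells. The 7 higher in Palo than in Vehicle became 4 without Acan or Col2a1 cells, and the 1 lower became 3 with exactly 1 rule, 2 without the highest doublet scores, 4 with equal weights, 0 with 5 CPM added and 3 without Acan or Col2a1 cells.

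In macrophages the 11 higher and 3 lower in Vehicle than in Matrigel-only became 7 and 0 with 5 CPM added, and the 3 lower became 6 with overlapping classes and 0 with a C1qa UMI required. The 2 higher and 11 lower in Palo than in Vehicle became 0 and 6 with 5 CPM added. In T/NK cells the 4 higher in Vehicle became 8 with overlapping classes, and the 1 lower became 2 with all barcodes, 0 with TMM scaling and 3 with no minimum. Between Palo and Vehicle the 0 higher became 2 and the 3 lower became 10 with overlapping classes, and the 3 became 5 with all barcodes and 1 with a minimum of 50 UMIs. T/NK, neutrophil and basophil values are limited by their few cells.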
